A study of Mus musculus with 2 samples.

Results

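The genes described here are 8 members of the S100 family of calcium-binding proteins: S100a8, S100a9, S100a4, S100a10, S100a6, S100a11, S100a13 and S100a1. They were taken by symbol from the gene tables, and all 8 were found among 43346 mouse gene IDs, 21461 of them nuclear protein-coding genes. The members were chosen by name with their TPM and expected counts in these libraries known, so their levels are described and not tested. The samples were 2 total RNA libraries, numbered 1 and 2, of primary cells that carry the label megakaryocyte, from male C57BL/6J mice 5 to 6 weeks old. They form 1 group with no treatment, mutation or second condition named. Each library is labelled a separate biological replicate, although both cite 1 donor. Of the isolation method only a title was used here, which concerns erythroid cells and megakaryocytes of bone marrow. The libraries were made from 100 ng of RNA freed of ribosomal RNA.

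S100 proteins are small, bind calcium through a pair of EF-hand motifs and mostly work as dimers that grip a partner protein once calcium is bound. In bone marrow they are best known from S100A8 and S100A9, which pair as calprotectin, a main cytosolic protein of neutrophils and monocytes that binds zinc and manganese and acts on Toll-like receptor 4 when released. Most of the other members bind annexins, myosin or other intracellular proteins. The S100A genes lie close together on mouse chromosome 3.

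The label was checked against marker genes before the levels were read. Of 14 megakaryocyte markers, 11 lay under 1 TPM (a level corrected for transcript length and depth) in both libraries, and Itgb3, Itga2b and Clec1b between 1.04 and 5.92 TPM. The median nuclear protein-coding gene stood at 0.28 and 0.27 TPM, so a level under 1 TPM is common by itself. Gp5 and Gp6 had 0 counts in both, and Pf4 had 0 and 3. Summed TPM of the 14 genes was 10.6 in library 1 and 12.2 in library 2, against 3286 and 2841 for 15 neutrophil markers and 7880 and 10282 for 10 monocyte markers. The libraries are therefore called the libraries labelled megakaryocyte. In such bulk RNA, fewer cells of a type and less RNA per cell cannot be told apart, and the cells that held an S100 transcript are not known. Summed expected counts, the estimated reads assigned to genes, were 42703213 and 50532821.

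Upstream sequences are shown for the 2 calprotectin genes, because they stand far above the rest of the family. Both come from RefSeq promoters on GRCm38.p6, are written 5′ to 3′ on the strand of the gene, and end at the base before the RefSeq start. Capitals mark matches on either strand to TATAAA (a core promoter motif), TTNNGNAA (bound by C/EBP factors) and GAGGAA (bound by PU.1), which lie next to each other without overlap where they touch. S100a8 covers chr3:90668821-90669070 on the plus strand and S100a9 chr3:90695722-90695971 on the minus strand.
S100a8: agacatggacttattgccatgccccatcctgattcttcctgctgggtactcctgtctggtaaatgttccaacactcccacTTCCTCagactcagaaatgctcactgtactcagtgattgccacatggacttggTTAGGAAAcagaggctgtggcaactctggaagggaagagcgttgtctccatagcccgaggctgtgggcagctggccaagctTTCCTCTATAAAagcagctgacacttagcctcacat
S100a9: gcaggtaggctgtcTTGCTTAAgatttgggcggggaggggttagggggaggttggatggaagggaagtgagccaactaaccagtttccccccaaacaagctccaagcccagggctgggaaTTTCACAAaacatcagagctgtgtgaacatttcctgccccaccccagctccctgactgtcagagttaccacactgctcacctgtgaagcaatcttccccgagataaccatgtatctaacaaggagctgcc

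S100a8 had TATAAA from -30 to -25 relative to the RefSeq start, 1 C/EBP match and 2 PU.1 matches, 1 of which ends where TATAAA begins. The S100a9 window held 2 C/EBP matches and neither of the other motifs. Of 32851 RefSeq promoter windows of 250 bases, 12.4% held TATAAA, 36.8% the C/EBP letters and 23.3% GAGGAA. Among the 7 members with a promoter in the table, TATAAA was found for S100a8 and S100a4, the C/EBP letters for S100a8 and S100a9, and GAGGAA for S100a8 and S100a11. A match describes the letters and is not a measured binding site.

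S100a8 and S100a9 were among the most abundant messages of these libraries. S100a8 (chromosome 3, 90668978 to 90670035 on mm10) stood at 7266 TPM in library 1 and 7929 TPM in library 2, or 7598 ± 469 (SD, n = 2). Its rank among nuclear protein-coding genes was 1 and 2. With the longer S100a8 transcript described below, its level was 4699 and 4999 TPM, a mean of 4849, at rank 2 in each library. S100a9 (chromosome 3, 90692632 to 90695721) stood at 4471 and 3427 TPM, or 3949 ± 738 (SD, n = 2), with ranks 3 and 4. S100a8 thus lay above S100a9 in each library, and the ranges did not overlap. The pair held 88.3% of the TPM of the 8 members in library 1 and 85.9% in library 2. All 8 members together took 5.24% ± 0.425 (SD, n = 2) of nuclear protein-coding TPM but 0.782% ± 0.0705 of the counts, since these transcripts are short. The members summed to 13290 and 13224 TPM, and all nuclear protein-coding genes to 240043 and 267991 TPM. TPM of all other rows lies outside this share.

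The counts behind these levels rank the pair differently. S100a8 had 125269 and 144885 expected counts, ranks 12 and 12 among nuclear protein-coding genes. S100a9 had 129959 and 108597 counts, ranks 11 and 20. In reads, S100a9 was the higher of the pair in library 1 and the lower in library 2. The gap between both scales is set by length. The S100a8 transcript is 392 bases long in the files, of which the quantification used an effective length, the positions a fragment could start from, of 172 and 160 bases. For S100a9 the lengths were 513 bases in full and 290.2 and 278 bases effective. At these lengths 1 TPM was worth 17.2 and 18.3 counts for S100a8 and 29.1 and 31.7 counts for S100a9.

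The ratio of S100a8 to S100a9 matters because the proteins pair in calprotectin. By TPM it was 1.63 in library 1 and 2.31 in library 2, a mean of 1.97 ± 0.487 (SD, n = 2). Counts per base of full length gave 1.26 and 1.75, and counts with no length correction 0.964 and 1.33. GENCODE M21 gives the S100a8 transcript 486 bases, 94 more than the files, and starts it 93 bases upstream of RefSeq. With those 94 bases added to the effective length and the counts kept, the ratio was 1.05 and 1.46. Whether reads fell in the added bases was not tested. On every scale tried the ratio was higher in library 2, by 1.38 to 1.42 times. All scales rest on the same reads, so they are not separate checks of that difference.

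**Figure D1:**
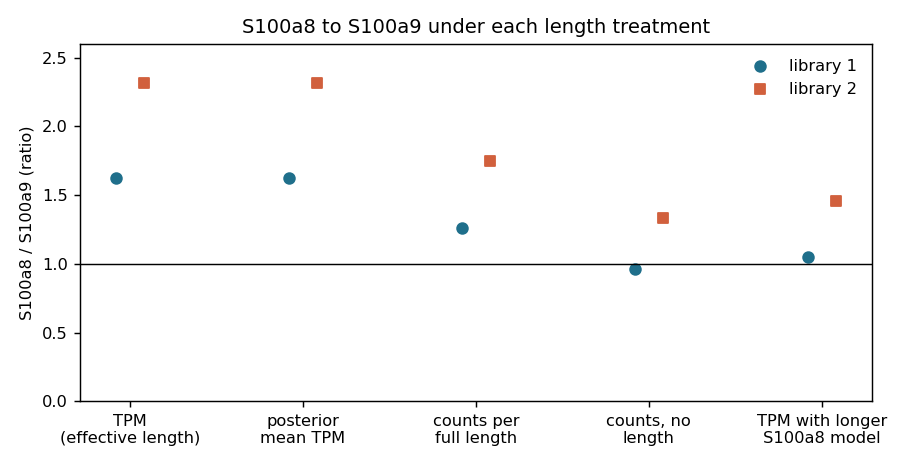
Ratio of S100a8 to S100a9 (y axis, no unit) in library 1 (circles) and library 2 (squares) under 5 treatments of transcript length (x axis), with a line at 1. The ratio runs from 1.63 and 2.31 by TPM to 0.964 and 1.33 by counts without length correction, and library 2 lies above library 1 in each. All 5 treatments rest on the same reads.

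S100a4, whose protein binds the heavy chain of nonmuscle myosin, was the third member. It stood at 833 and 994 TPM, from 22915 and 29741 counts, with ranks 18 and 19. S100a10, which joins annexin A2 in a tetramer and has lost the response to calcium, stood at 327 and 456 TPM, from 15128 and 23340 counts. S100a6, also called calcyclin, stood at 262 and 287 TPM, from 12988 and 15828 counts. These 3 genes all reached 100 TPM in each library. Of the 8 members, 5 reached that level, which 1.62% of nuclear protein-coding genes did, and 2 reached 1000 TPM, which 0.0513% did.

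The remaining 3 members were lower. S100a11, whose protein binds annexin A1, stood at 82.6 and 59.5 TPM, from 2385 and 1871 counts. S100a13, known for the export of FGF1 and interleukin 1 alpha without a signal peptide, stood at 34.9 and 49.2 TPM, from 1721 and 2687 counts. S100a1, best known from the calcium handling of heart and skeletal muscle, stood at 12.6 and 22.1 TPM, from 567 and 1109 counts. Its SD was 38.5% of its mean, the highest of the members, while that of S100a8 was 6.17%. Each of the 8 reached 10 TPM in library 1 and in library 2, as did 16.9% of nuclear protein-coding genes. The members' median was 333 TPM. These shares restate how the members were chosen.

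By TPM the order S100a8, S100a9, S100a4, S100a10, S100a6, S100a11, S100a13, S100a1 was the same in both libraries, and none of the 7 pairs of neighbours had overlapping ranges. The narrowest margin was between S100a10 and S100a6, where the lowest S100a10 value was 1.14 times the highest S100a6 value. S100a11 and S100a13 were next, at 1.21 times. That pair changed places in library 2 by counts (1871 for S100a11, 2687 for S100a13) and by counts per base of full length (3.66 and 3.76). By full length 6 of the 7 pairs stayed apart.

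**Figure D2:**
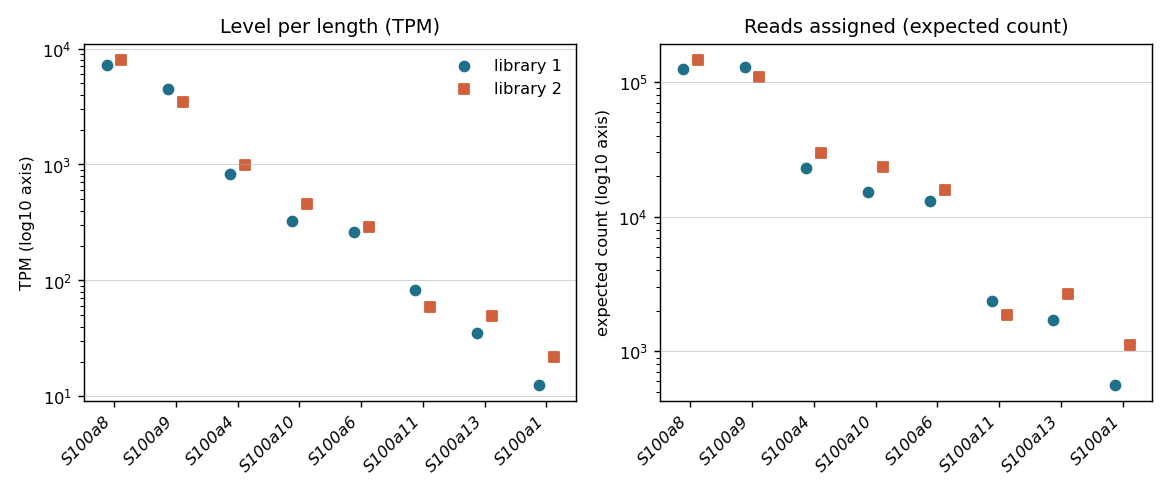
Levels of the 8 members in TPM (left, log10 axis) and expected counts (right, log10 axis) in library 1 (circles) and library 2 (squares). S100a8 lies above S100a9 in TPM in both libraries, while in counts S100a9 is above in library 1, at 129959 against 125269.

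The other S100 genes were at or near 0. The members were set apart from them with the levels known, so this contrast restates that choice. Of 10 on the list, 9 had a row and all 9 were under 1 TPM in both libraries. The median nuclear protein-coding gene lay under 1 TPM as well, at 0.28 and 0.27. S100a2, S100a3, S100a7a, S100a16, S100g and S100z had 0 counts in both. A limit of 3 counts allows S100a3 up to 0.0613 and 0.0553 TPM, and allows S100z, the shortest, up to 0.335 and 0.333 TPM, for counting error only. S100b, a marker of astrocytes and other glia, had 0 and 5 counts. S100a14 had 3 and 0. S100a5 had 17 and 0 counts, at least 6.7-fold lower in library 2 if library 2 is set at the 3-count limit. S100a7l2 had no row and was not analysed here.

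S100 genes at 0 counts or under 1 TPM lie among the expressed ones on the chromosome. The 12 genes from S100a1 to S100a9 lie within 184688 bases of chromosome 3, and 6 of them are members. S100a1 and S100a13 open the row, on opposite strands with starts facing away from each other. Their starts leave 42 bases between them in GENCODE M21, whereas by the RefSeq starts, 90514330 for S100a1 and 90514233 for S100a13, their 5′ ends overlap. Next come S100a14, S100a16, S100a3 and S100a2, whose highest value was 0.04 TPM. S100a4 at 833 and 994 TPM lies 2477 bases before S100a5, and S100a5 at 0.85 and 0 TPM lies 1101 bases before S100a6 at 262 and 287 TPM. S100a7a, with 0 counts, lies between S100a6 and S100a8. S100a8 and S100a9 have their 3′ ends facing each other, 22596 bases apart. Among 60 protein-coding genes between S100a9 and S100a11, all were under 1 TPM in both libraries and 56 had 0 counts. The median of all nuclear protein-coding genes was 0.28 and 0.27 TPM, so a level under 1 TPM is common. Of all 43346 mouse gene IDs, coding or not, 17401 had any rounded count in the 2 libraries. The 2 genes beyond these 60, S100a11 and S100a10, are 28792 bases apart.

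**Figure D3:**
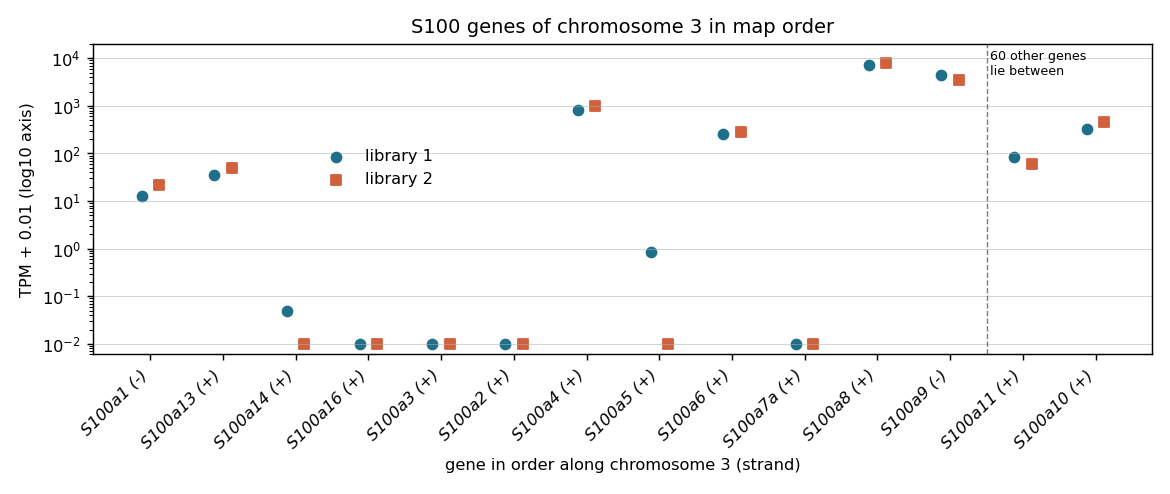
TPM + 0.01 (log10 axis) of the 14 S100 genes of chromosome 3 in map order, with the strand in brackets, in library 1 (circles) and library 2 (squares). Genes with 0 counts sit at 0.01, and S100a5 and S100a7a lie between S100a4, S100a6 and S100a8, which are at 262 TPM or more.

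Nearly all TPM of each member came from 1 transcript, with S100a9 as the exception. Its 512-base transcript held 85.0% and 84.4% of the S100a9 TPM and its 519-base transcript 15.0% and 15.6%. Both are coding and have 3 exons. The longer one starts 10 bases further upstream, at the RefSeq start used above, and its second exon begins 3 bases later. That distribution differed little between the libraries, with an SD of 0.481 percentage points. The 577-base transcript of S100a1 held 5.75% of S100a1 TPM in library 1 and 0.62% in library 2, or 25.8 and 5.35 counts. For 7 of the 8 members a single coding transcript held 90% or more in both libraries.

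The interval deposited beside each TPM did not always hold it. For S100a8 the TPM lay above the upper bound in both libraries, 7266 against 7230 and 7929 against 7900 TPM. For S100a9 it did so too, 4471 against 4448 and 3427 against 3416 TPM. The other 6 members lay inside theirs. Among nuclear protein-coding genes averaging at least 100 counts, 0.472% lay above their interval in library 1 and 0.383% in library 2. Most of those genes had far fewer counts than S100a8 and S100a9, which ranked from 11 to 20 by counts, so these shares are not for genes of like depth. The deposited posterior mean was 98.9% to 99.3% of the TPM for all 8 members.

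Sequence shared with other genes limits some of these values. Of the 31-base words of the S100a11 transcript, 48.9% also occur in at least 1 of 6 processed pseudogenes, mainly Gm12854, so reads could be divided and its level is uncertain. Those 6 rows held 6.23 counts in library 1 and 0 in library 2. For S100a4, 58.1% of words occur in Gm42674, an overlapping gene of GENCODE M21 that the files count as a transcript of S100a4, at 0.19% of its TPM in each library. No word of S100a8, S100a9, S100a6, S100a13 or S100a1 was shared.

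The libraries were then compared with each other on counts scaled with edgeR's TMM factors. With 1 library a side there is no replicate check and no p-value, and intervals are exact binomial ones at 95% that hold counting error only. S100a1 was higher in library 2 (567 and 1109 counts), with a log2 ratio of library 2 over library 1 of 0.73 (0.58 to 0.88). S100a11 was lower in library 2 (2385 and 1871 counts), at -0.59 (-0.68 to -0.50). These 2 of 8 members passed 1.5-fold, S100a11 narrowly at 1.51-fold, 1 in each direction. Of 14280 genes averaging at least 10 counts, 23.9% passed, 10.8% higher in library 2 and 13% higher in library 1. Of 10952 averaging at least 100 counts, as all members do, 10% passed, 4.22% higher in library 2 and 5.78% higher in library 1. Nothing about the family is read from so small a count. By TPM the S100a11 ratio was -0.47 and only S100a1 passed.

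The other 6 members stayed under 1.5-fold. S100a9 was lower in library 2 at -0.50 (-0.51 to -0.49). S100a13 and S100a10 were higher in library 2 at 0.40 and 0.39, as was S100a4 at 0.14. S100a6 (0.04) and S100a8 moved least. The S100a8 ratio was -0.03 by scaled counts and 0.13 by TPM, so no direction is given. The median log2 TPM ratio of all genes averaging at least 10 counts was itself 0.07. The median size of the log2 ratio was 0.39 over the members and 0.23 over all genes averaging at least 10 counts. Over genes averaging at least 100 counts, as all members do, it was 0.18.

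**Figure D4:**
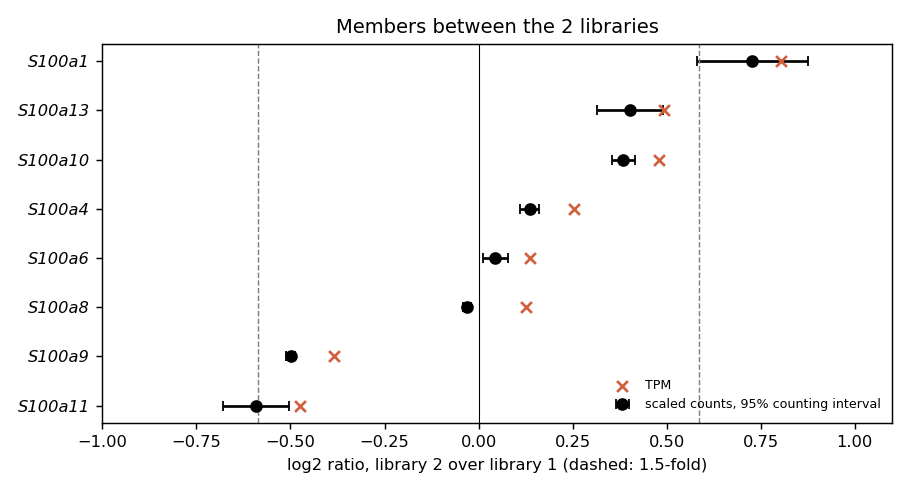
Log2 ratio of library 2 over library 1 for each member, from scaled counts (points, with 95% binomial intervals for counting error) and from TPM (crosses), with dashed lines at 1.5-fold. S100a1 lies past the line on both scales, S100a11 on counts alone, and S100a8 lies near 0 with opposite signs.

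Marker genes of the cell types that could hold S100 transcripts were set beside these ratios. Over all genes averaging at least 10 counts, the median log2 ratio of library 2 over library 1 was -0.0004. Of 15 neutrophil markers, 11 were lower in library 2 by scaled counts, and 1 passed 1.5-fold, Lcn2 at -0.62. Their median log2 ratio was -0.17, with Ngp at -0.41 and Mmp9 at -0.39 but Mmp8 at 0.00, Ctsg at 0.05, Elane at 0.09 and Ly6g at 0.11. S100a9 at -0.50, S100a8 at -0.03, S100a6 at 0.04 and S100a11 at -0.59 all lay within the range of that list. Of 10 monocyte markers, 9 were higher in library 2 and none passed 1.5-fold, with a median of 0.16 and the highest, Ms4a6c, at 0.38. S100a8, S100a6 and S100a4 (0.14) lay within the range of the monocyte list, whose lowest was Cd68 at -0.11. Which cells held these transcripts was not tested. None of the markers of either list was at 0. These 1 of 15 and 0 of 10 stand beside the 10% of all genes averaging at least 100 counts. Of 10 erythroid markers, 7 passed 1.5-fold lower in library 2, with summed TPM of the 10 of 125.8 and 63.0. Another 1 passed higher, Epor, at only 11 and 24 counts. Of 8 T and NK cell markers, with summed TPM of 33.4 and 19.8, 7 had enough counts and 4 passed 1.5-fold, all lower in library 2. Some genes of the erythroid and T and NK lists average under 100 counts. Beside their calls stand the 23.9% of all genes averaging at least 10 counts and the 10% of those averaging at least 100 that passed. The 8 basophil, mast cell and eosinophil markers had summed TPM of 266.7 and 284.4. Of them, 5 reached 10 TPM in each library, as did 16.9% of nuclear protein-coding genes. Of these 8, 2 passed 1.5-fold, both lower in library 2: Epx at -0.80 and Cma1, at 38 and 1 counts. The same 23.9% and 10% stand beside them, and of these 8 markers only Cma1 averages under 100 counts. The part of all these shifts in the S100 differences was not tested.

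Genes of proteins that S100 proteins bind were measured as RNA only. Of 5 annexin partners, 4 reached 10 TPM in each library, as did 4 of 8 intracellular targets. Of all nuclear protein-coding genes, 16.9% reached that level. Anxa2, the partner of S100a10, stood at 162 and 191 TPM, so S100a10 was 2.02 and 2.39 times as high by TPM but 0.766 and 0.895 times by counts. Anxa1, the partner of S100a11, stood at 531 and 547 TPM, and S100a11 at 0.155 and 0.109 of it. Anxa5 (99 and 114 TPM) and Anxa6 (57.2 and 67.3 TPM) lay between them and Anxa11 (6.31 and 3.69 TPM). S100a11 therefore stood below its annexin and S100a10 above its own, on the TPM scale.

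Among 8 intracellular targets, Myh9, the myosin heavy chain bound by S100a4, stood at 221 and 211 TPM and Ahnak, a scaffold held by the S100a10 and annexin A2 complex, at 179 and 181 TPM. Cacybp, named for binding S100a6, stood at 30.7 and 33.5 TPM, and Sugt1, another S100a6 target, at 17.9 and 16. Fgf1, a cargo of the S100a13 export route, and Syt1, of the same complex, had 0 counts in both libraries. Il1a, another cargo, had 0 and 7. In the plasminogen system, which S100a10 with annexin A2 helps to activate, the tissue activator Plat had 0 counts in both, while the urokinase receptor Plaur stood at 19.8 and 18.9 TPM and the plasminogen receptor Plgrkt at 14.2 and 13.9. Of those 5 genes, Plg, which encodes plasminogen, had 5 and 81 counts, and Plau, which encodes urokinase, stood at 4.25 and 4.62 TPM. Ppfibp1, the eighth intracellular target, stood at 2.22 and 2.86 TPM.

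Receptors for extracellular S100a8 and S100a9 were lower than their ligands. Of 7, only Nptn (54.5 and 66 TPM) and Bsg (48.2 and 53.9 TPM) reached 10 TPM in each library. Of all nuclear protein-coding genes, 16.9% reached it. Tlr4 stood at 6.69 and 4.99 TPM, its partner Ly96 at 9.39 and 9.84, Cd14 at 3.57 and 6.09, Cd36 at 1.12 and 0.83, and Ager, which encodes RAGE, at 0.58 and 0.44. Between the libraries 1 of the 7 receptors passed 1.5-fold, Cd14, higher in library 2 at 0.70 on scaled counts. So did 1 of 5 annexin partners, Anxa11 at -0.86. Of 4 plasminogen system genes with enough counts, 1 passed, Plg at 3.78 from 5 and 81 counts. None of 5 intracellular targets with enough counts and none of 8 other EF-hand genes passed. Beside these calls stand the 23.9% of all genes averaging at least 10 counts and the 10% of those averaging at least 100 that passed. Of the genes tested in these lists, only Ager and Plg average under 100 counts. S100a8 exceeded Tlr4 1086-fold and 1589-fold by TPM and 48.5-fold and 66.4-fold by counts.

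Of 6 transcription factors known to act on S100a8 and S100a9, all had counts and 5 reached 10 TPM in each library. That level was reached by 16.9% of nuclear protein-coding genes, and the list was chosen with earlier results of these data known. Spi1, which encodes PU.1, stood at 63.1 and 81 TPM and Stat3 at 46 and 28.7 TPM. Cebpd stood at 32.2 and 24.3 TPM, Cebpb at 13.8 and 16.4, and Cebpe, a factor of late granulocyte maturation, at 13.2 and 11.5. Cebpa, at 5.22 and 5.91 TPM, was the lowest. Between the libraries none of the 6 passed 1.5-fold on scaled counts, beside 10% of all genes averaging at least 100 counts, as all 6 do. For Stat3 the scales differed: its counts were 7842 and 9213, a scaled log2 ratio of -0.01, while its TPM was lower in library 2.

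Other EF-hand genes were all expressed, 8 of 8 reaching 10 TPM in each library, as did 16.9% of nuclear protein-coding genes. Calm2 and Calm3, which encode the calcium sensor calmodulin, stood at 351 and 440 TPM and at 80.5 and 107.8 TPM. Lcp1, the actin bundler L-plastin, stood at 179 and 183 TPM, Capns1, the small calpain subunit, at 78.9 and 85.4, Sri at 30.3 and 47.7, Efhd2 at 24.2 and 21.9 and Pdcd6 at 13.7 and 15.7.

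**Figure D5:**
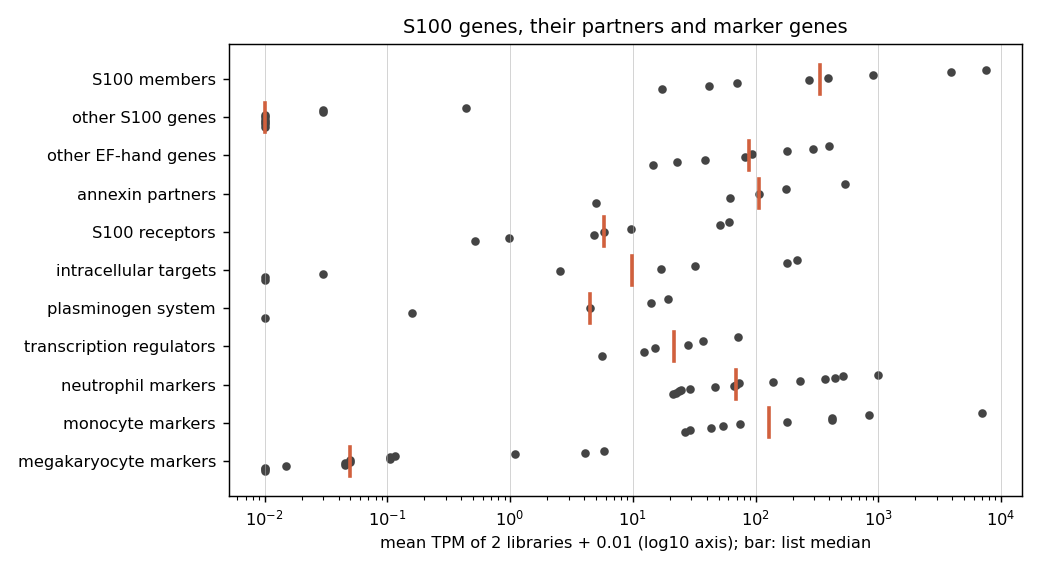
Mean TPM of the libraries + 0.01 (log10 axis) of each gene (points) in the S100 members, the other S100 genes, 6 groups of related genes and 3 groups of cell markers, with the median of each group as a bar. The S100 members have a median of 333 TPM, against 88.1 TPM for other EF-hand genes and 0.04 TPM for megakaryocyte markers. The members were chosen with their levels known.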

How the data were processed

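Total RNA was measured in 2 libraries labelled megakaryocyte. Reads were mapped to mm10 with GENCODE M4, per the file headers of the text deposited with each library, and which aligner and quantifier ran is not given in the sources used here. Per gene and transcript, the authors deposited expected counts (estimated, not normalized), TPM scaled to a fixed sum over all rows, posterior mean TPM, FPKM (checked, not reported), lengths and the percent of a gene's TPM in each transcript. The deposited bounds of a TPM interval, of unstated level, were treated as a score. Per the labels, the size range was 221 to 1000 in library 1 and 200 to 1000 in library 2, with no unit named.

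Symbols and coordinates came from GENCODE M21 by gene ID, matching 42462 of 43346. Counts were rounded for TMM factors (edgeR 4.0.16, R 4.3.3) over mouse genes averaging at least 10 counts. DESeq2 1.42.0 size factors were an alternative. The ratio code was tested on simulated data. Each TPM stood for 100.2 and 113.9 counts where the effective length was 1000 bases. Intervals and limits cover counting error only, since the tables hold estimated reads, not molecules.

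The members, lists and rules were chosen with earlier results of these data known. Named were all S100 genes, genes lying between them, list genes averaging at least 10 TPM or at 0 counts, the gene nearest each member in TPM, and transcripts with 10% or more; other list genes (Tlr4, Ly96, Cd14, Cd36, Ager, Anxa11, Il1a, Plg, Plau, Ppfibp1, Cebpa), the lesser S100a1 transcript and marker genes were added after their values were seen. Some genes under this rule are not reported here. No p-value was computed.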

Additional observations from a re-analysis of the deposited data

How the results depend on the processing

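Between library 1 and library 2 alone, the S100a8 to S100a9 ratio ranged from 1.63 to 2.31, the members' share of nuclear protein-coding TPM from 4.93% to 5.54%, and the share of the leading S100a9 transcript from 84.4% to 85.0%. Without length correction the mean ratio was 1.15, and with the longer S100a8 transcript of GENCODE M21, an alternative chosen after seeing the data, 1.25. The members' share was 0.782% by expected counts. By TPM 1 member in place of 2 passed 1.5-fold, because S100a11 went from -0.59 to -0.47 in log2. DESeq2 size factors, summed counts and the other count filters kept S100a1 and S100a11 past that fold. Rescaling TPM to nuclear protein-coding genes alone raised every member's level by construction, S100a8 to 29929. Posterior mean TPM changed none of these results by more than 1 SD. No paired analysis was possible because the libraries form 1 group. With 2 libraries, an SD is itself imprecise.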

Other observations

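By TPM in both libraries, the nuclear protein-coding gene outside the family nearest to the member was Lyz2, the lysozyme gene, for S100a8 (5969 and 8031 TPM), Hist2h2aa1 for S100a9 (3094 and 4030 TPM), Rps3a1 for S100a4, Plac8 for S100a10, Gapdh for S100a6, Mmp9 for S100a11 and Psmb3 for S100a13. The larger of the 2 log2 differences was 0.28 for Lyz2, 0.53 for Hist2h2aa1 and from 0.04 to 0.07 for the other genes named, to 2 decimals. With 2 libraries this likeness is one of level and shows no shared pattern. Lyz2 had 623485 and 942951 counts, against 125269 and 144885 for S100a8 at a like TPM.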
